A study of Mus musculus with 18 samples.

Results

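The 4 RNAs described here are stable, noncoding parts of ribonucleoprotein machines: 7SK (gene Rn7sk), the RNA of RNase MRP (Rmrp), the RNA of RNase P (Rpph1) and the telomerase RNA (Terc). They were taken by gene symbol from a table of 54446 genes counted in 18 libraries, by a rule that uses no measured value. GENCODE M21 holds 5 gene models for the 4 symbols, since Rmrp has a pair. Rn7sk, Rpph1 and Terc had reads in all 18 libraries, whereas both Rmrp models stood at 0 in each.

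The 7SK RNA is made by RNA polymerase III and capped at its first base by MEPCE. With LARP7 and a HEXIM protein it holds the kinase P-TEFb (CDK9 with cyclin T) inactive, which restrains the release of paused RNA polymerase II. RNase P cuts the leader off transfer RNA precursors. RNase MRP, its relative with largely the same proteins, cuts the ribosomal RNA precursor. The telomerase RNA is the template from which the reverse transcriptase TERT writes telomere repeats, and it is made by RNA polymerase II and held by the H/ACA proteins dyskerin, NHP2, NOP10 and GAR1. Telomerase is active in embryonic stem cells. The N6-methyladenosine (m6A) mark, written on RNA by a complex around METTL3 and read in the nucleus by YTHDC1, was not itself measured in these libraries.

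The libraries hold nuclear RNA of C57BL/6 mouse embryonic stem cells, grown in serum with LIF and the kinase inhibitors CHIR99021 and PD0325901. Cells with the genotype labels Ythdc1_Control and Ythdc1_cKO were collected after 0, 3 and 6 h of actinomycin D at 5 µg/ml, a drug that blocks transcription, following 48 h of culture. Cells labelled Mettl3_Control, Mettl3_KO1 and Mettl3_KO2 carry the time point 0 h. Each of the 9 groups had 2 libraries, and the labels do not say whether these came from separate cultures, so p-values measure the spread between libraries, which may be technical. The alleles and the way deletion was induced in cKO are not described in the labels, and KO1 and KO2 are 1 line each. The labels give no more on the controls than their names. The series examines how nuclear RNA decays when YTHDC1 is removed and how nuclear RNA differs without METTL3.

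Gene reads ranged from 4950973 to 30989044 per library. The spike-in RNA, added at 0.1 µl per sample, gave 772 to 1295 reads per 1000000 gene reads in Ythdc1 control libraries, 961 to 1889 in cKO at 0 and 6 h, and 272 and 277.5 in cKO at 3 h, which stand apart; the Mettl3 libraries had 358 to 562. All 10 stem cell markers were detected, with 3042 to 4673 summed reads per 1000000 gene reads. Summed markers of fibroblast feeder cells reached 42.6 on that scale at most in the Ythdc1 libraries and lay between 221.5 and 603 in the Mettl3 libraries. Levels of single genes are given as CPM, read counts per 1000000 scaled by TMM factors, which set the typical gene of each experiment to no change. The targeted genes did not separate the labels cleanly. Ythdc1 was at 138.5 CPM in control and 131.8 CPM in cKO at 0 h (log2 -0.07, edgeR quasi-likelihood adjusted p = 0.557). With spike-in scaling its difference was -0.44 (adjusted p = 2.49e-05), where the median of all genes was -0.355. Mettl3 did not pass the test in KO1 (-0.10, adjusted p = 0.316) but fell by 0.61 in KO2 (adjusted p = 7.45e-10). With spike-in scaling the KO2 value was -0.05 (adjusted p = 0.637). Ythdc1 fell further with the drug in cKO than in control (difference -1.71 at 3 h, where spike-in scaling gave 0.65, and -1.31 at 6 h). Groups are therefore called by their labels. In bulk RNA, fewer cells of a type and less RNA per cell cannot be told apart.

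Where the RNAs lie decides what their counts can show. Rn7sk (ENSMUSG00000065037.1) is a single exon of 331 bases at chr9:78175303-78175633 on the minus strand of mm10, and Terc (ENSMUSG00000064796.1) a single exon of 423 bases at chr3:96414437-96414859, also minus. Neither overlaps another exon, and the Terc model is 26 bases longer than the RefSeq one, at its 5′ end. Rpph1 (ENSMUSG00000092837.1) is a single exon of 319 bases at chr14:50807449-50807767 on the minus strand. A 5′ UTR exon of Ccnb1ip1 on that same strand covers 233 of those bases. This leaves 51 bases at the 3′ end and 35 at the 5′ end, 86 in all, that belong to Rpph1 alone. The ribozyme model of Rmrp (ENSMUSG00000088088.1; 271 bases, chr4:43492788-43493058, minus) lies wholly within the lincRNA model of Rmrp (ENSMUSG00000115420.1; 281 bases), with 5 bases to spare on either side. An exon of Ccdc107 overlaps both on the opposite strand over 124 bases.

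**Figure D1:**
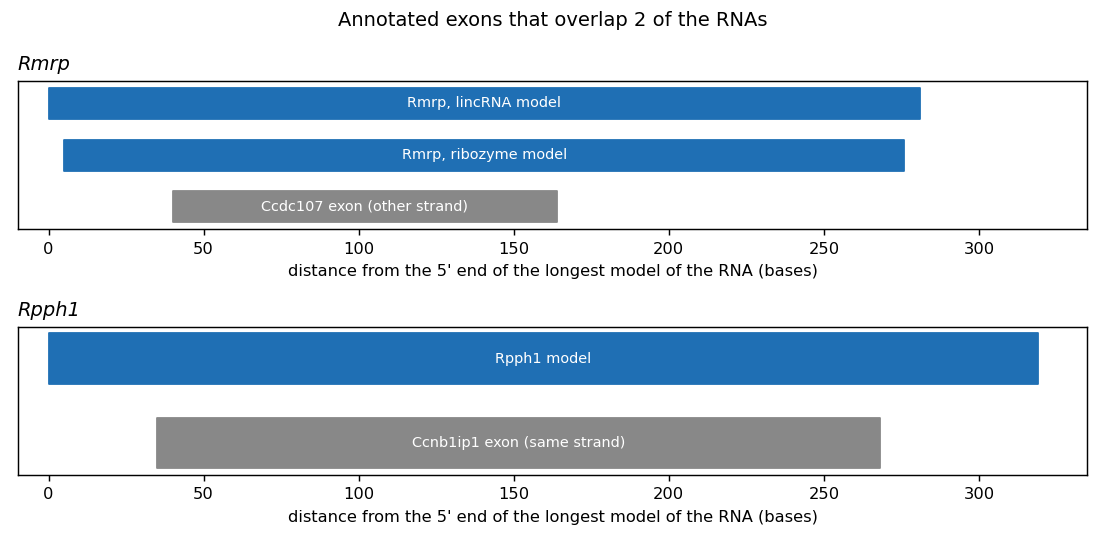
Annotated exons over Rmrp (top) and Rpph1 (bottom), drawn to scale by distance in bases from the 5′ end of the longest model of each RNA. The Rmrp ribozyme model (271 bases) sits inside the lincRNA model (281 bases), and an exon of Ccnb1ip1 covers the middle 233 bases of Rpph1, leaving 35 and 51 bases at its ends.

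The sequences show which bases these are and where the best known functional letters sit. They are copied from the GENCODE M21 transcripts, written as DNA from 5′ to 3′. The 5′ part of Rn7sk is shown with GATC (GAUC in RNA) in capitals, the letters of the paired motifs to which HEXIM is known to bind in the 5′ hairpin. The whole RNA holds 3 matches, all in this part, and 68.8% of the 16517 transcripts of 250 to 450 bases hold at least 1.
Rn7sk, first 120 bases: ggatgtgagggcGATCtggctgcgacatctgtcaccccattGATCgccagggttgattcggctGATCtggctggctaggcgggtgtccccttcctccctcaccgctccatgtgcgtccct
The 5′ part of Terc is shown with CTAACCCT in capitals, the template letters for the telomere repeat. The whole RNA holds 1 match, and 0.466% of transcripts of that length have any.
Terc, first 120 bases: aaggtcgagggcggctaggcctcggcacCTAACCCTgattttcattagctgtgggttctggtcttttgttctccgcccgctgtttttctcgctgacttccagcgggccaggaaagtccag

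Rmrp is shown as its longer model, in which capitals mark the 5 bases at either end outside the ribozyme model. A read placed anywhere else in it lies in both models at once.
Rmrp: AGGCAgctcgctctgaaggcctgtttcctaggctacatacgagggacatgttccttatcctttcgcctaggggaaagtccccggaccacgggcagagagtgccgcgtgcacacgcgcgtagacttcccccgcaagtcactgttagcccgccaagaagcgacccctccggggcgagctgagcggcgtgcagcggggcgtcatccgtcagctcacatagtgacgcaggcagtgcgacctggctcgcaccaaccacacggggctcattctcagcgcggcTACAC
For Rpph1 only the ends are shown, with the bases outside the Ccnb1ip1 exon in capitals.
Rpph1 5′ end: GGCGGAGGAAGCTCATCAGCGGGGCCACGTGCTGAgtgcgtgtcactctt
Rpph1 3′ end: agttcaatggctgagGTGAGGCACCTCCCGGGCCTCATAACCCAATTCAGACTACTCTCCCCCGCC
GGAC, letters within which m6A is often placed on messenger RNA, was searched on the RNA strand. It matched 2 times in Rn7sk, 2 times in Rmrp, 2 times in Terc and 0 times in Rpph1, and 79.8% of transcripts of that length hold it. GGACT, which contains GGAC, matched 1 time in Terc and 0 times in the other RNAs, against 35% of transcripts. GC content was 58% in Rn7sk, 63.7% in Rmrp, and 67.1% in Rpph1 and in Terc.

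Rmrp could not be measured. Its 2 models had 0 reads in all 18 libraries. By counting error alone this allows up to 3 reads given to 1 model, or 0.0968 to 0.606 per 1000000 gene reads depending on depth. It sets no upper limit on the RNA itself, since a read that lies in both models need not be given to either, whatever the level. Reads that the authors' counting could not give to 1 gene, the ambiguous class, made up 2.67% to 10.2% of uniquely placed reads. How many of them lie over Rmrp was not tested, since the count files hold only their total. Ccdc107, whose exon crosses Rmrp on the other strand, went from 9.98 CPM (SD 4.28, n = 2) to 69.8 CPM (SD 0.831) in control at 6 h of the drug. That was a log2 change of 2.86 ± 0.279 (SE; edgeR adjusted p = 3.55e-05), and 1.94 with spike-in scaling. In cKO it went from 17.3 to 33.8 CPM, a log2 change of 0.88 that was lost with spike-in scaling (-0.08, adjusted p = 0.814). The strand setting of the counting is not known. A read within this overlap lies in both Rmrp models if it comes from Rmrp, and also in Ccdc107 if strand was ignored. What part Rmrp has in the Ccdc107 values was not tested.

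The levels of the other 3 RNAs differed widely. Per kilobase of annotated exon, untreated Ythdc1 control libraries had 15837 CPM of Rn7sk (SD 505, n = 2), 1651 CPM of Rpph1 (SD 216) and 111 CPM of Terc. The Rpph1 value divides by the full model, although only its ends are unshared. By raw reads, Rn7sk ranked between place 1 and place 7 of 54446 genes in the 12 Ythdc1 libraries and at 4 or 5 in the Mettl3 libraries. It took 0.536% to 1.41% of gene reads in the first and 0.596% to 0.696% in the second. Terc ranked between 1172 and 5453 in the Ythdc1 libraries, with 378 to 1835 reads, and its counting error is therefore larger.

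**Figure D2:**
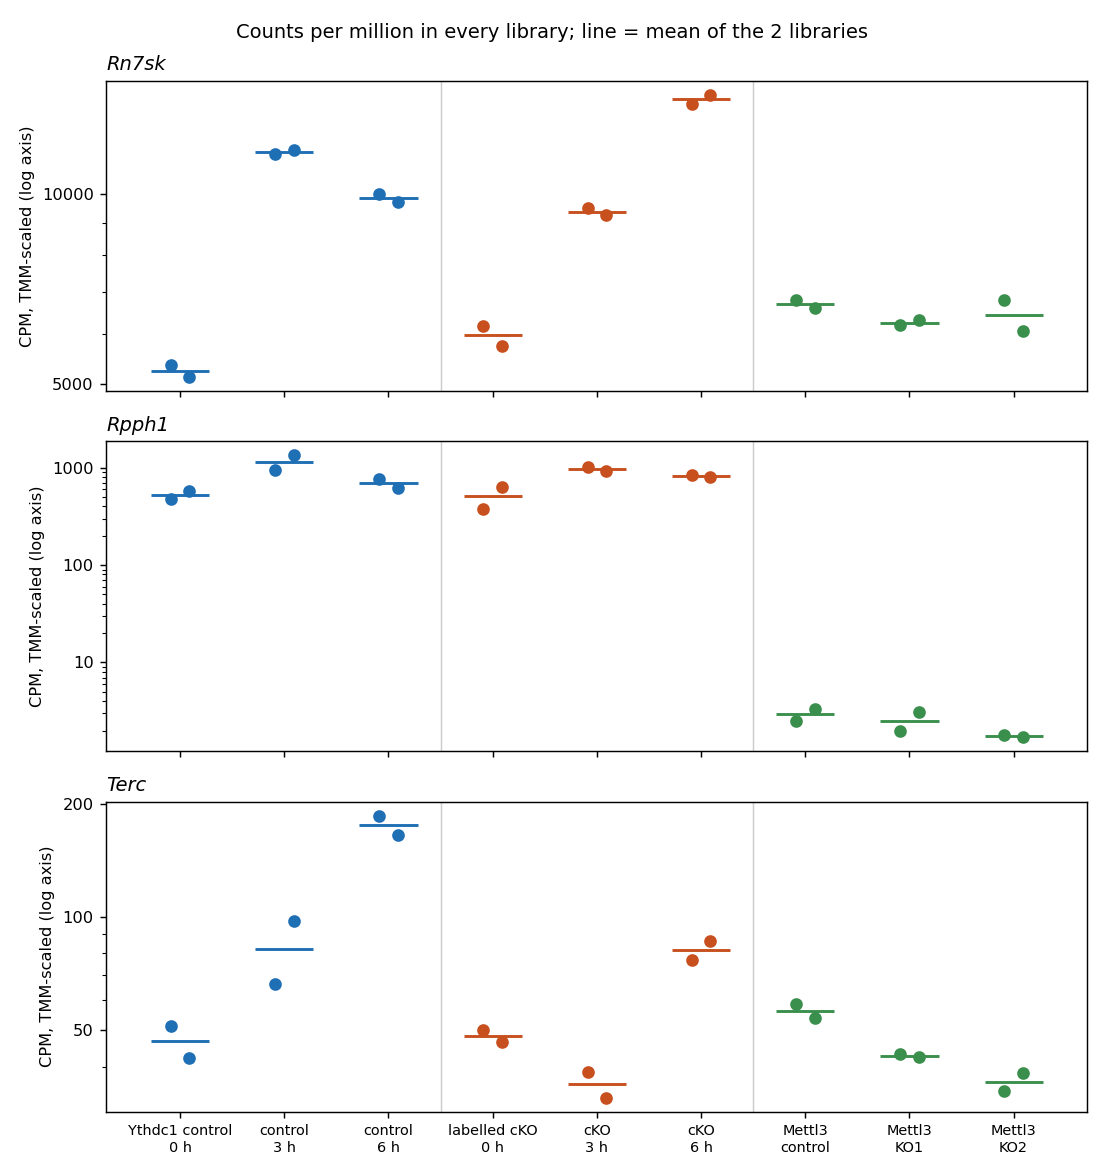
TMM-scaled CPM (log axes) of Rn7sk, Rpph1 and Terc in each of the 18 libraries; points are libraries and lines the mean of 2. Scaling was done within each experiment, so the Ythdc1 (blue, orange) and Mettl3 (green) sets are not on 1 common scale. Rn7sk was lowest at 0 h in both Ythdc1 genotypes, Terc was highest in control at 6 h (165 and 186 CPM), and Rpph1 was at 1.70 to 3.36 CPM in all Mettl3 libraries.

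Before the drug, the libraries labelled cKO had slightly more Rn7sk than control. Control had 5360 and 5124 CPM and cKO 6182 and 5741 CPM, so the groups did not overlap. The log2 difference was 0.19 ± 0.033 (edgeR quasi-likelihood adjusted p = 2.67e-05), a 1.14-fold change. With spike-in scaling it turned to -0.18 ± 0.036 (adjusted p = 6.35e-05), while the median of all genes moved from 0.01 to -0.36 and 4.41% of genes were called higher and 42.3% lower. Rn7sk was thus higher relative to the typical gene and lower per spike-in read. Of the 4 RNAs it was the only call, 1 of 3 tested, and 29.4% of the 17900 genes tested were called in this comparison (13.5% higher, 15.8% lower). Rpph1 had 478 and 576 CPM in control and 380 and 635 CPM in cKO. The cKO pair spanned the control pair, and the log2 difference was -0.05 ± 0.279 (adjusted p = 0.913; ± 2 SE from -0.61 to 0.50). Terc overlapped as well, at 51.4 and 42.2 CPM in control and 49.9 and 46.4 CPM in cKO, with a difference of 0.05 ± 0.221 (adjusted p = 0.899; ± 2 SE from -0.39 to 0.49). Marker lists also differed between the genotypes before the drug, and their part in these values was not tested. Of the 10 stem cell markers 1 was called higher and 7 lower in cKO (median log2 -0.37; spike-in scaling 0 and 9). Of 10 mitochondrial mRNAs tested 2 were called higher and 0 lower (median log2 0.31, with spike-in scaling 0 and 0). Of 7 feeder markers tested 2 were higher and 1 lower (median log2 1.11). With spike-in scaling 2 were higher and 2 lower (median 0.76). Of 6 markers of differentiated lineages tested 0 were higher and 2 lower under either scaling.

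In control, the Rn7sk level rose with actinomycin D relative to the typical gene. At 3 h the libraries had 11584 and 11737 CPM, and at 6 h 10006 and 9717 CPM. All 4 drug-treated libraries lay above both untreated ones. Relative to the typical gene, Rn7sk rose by 1.15 ± 0.033 at 3 h (log2; edgeR adjusted p = 4.11e-26) and by 0.91 ± 0.033 at 6 h (adjusted p = 1.08e-23). With spike-in scaling the rise at 3 h was 0.63 ± 0.036 and the value at 6 h was -0.0049 ± 0.036 (adjusted p = 0.912). In reads of Rn7sk per spike-in read, control went from 6.99 (SD 0.0646, n = 2) at 0 h to 10.8 at 3 h and 6.96 (SD 0.215) at 6 h. On the same scale the median of all genes was at -0.46 at 3 h and -0.88 at 6 h.

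The make-up of the libraries moved with the drug as well, and its part in these changes was not tested. Of the 13 mitochondrial mRNAs 10 were tested, and in control at 6 h 10 of the 10 were called lower (median log2 -2.98; -3.89 with spike-in scaling). Summed over the list, the level went from 9787 and 10416 to 2254 and 2283 reads per 1000000 gene reads. In cKO 9 of 10 were called lower at 6 h (median -2.81), with sums of 12436 and 12614 at 0 h and of 8509 and 8542 at 6 h. Reads that the counting gave to no feature fell from 49.7% and 50.1% of uniquely placed reads in untreated control to 21% and 21.05% at 6 h. In cKO they fell from 53.5% and 52.3% to 18.3% and 18%. Whether they lie in introns or between genes cannot be told, since the counting options are not known. The ambiguous class rose over the same 6 h from 2.67% and 2.91% to 10.1% and 10.2% in control, and from 3.11% and 3.51% to 9.36% and 9.29% in cKO. Summed feeder markers were at most 16.2 reads per 1000000 gene reads in untreated control and at 40.2 and 42.6 in control at 6 h.

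Rpph1 was also higher at 3 h. Its control libraries had 957 and 1335 CPM at 3 h and 764 and 619 CPM at 6 h. Both pairs lay above the 0 h pair. The change at 3 h was 1.12 ± 0.279 (edgeR adjusted p = 0.0138), which did not pass with spike-in scaling (0.59, adjusted p = 0.143) or without control 0 h replicate 1 (0.99, adjusted p = 0.0842) or control 3 h replicate 2 (0.86, adjusted p = 0.077). At 6 h it was 0.39 ± 0.278 (adjusted p = 0.263), and -0.53 with spike-in scaling (adjusted p = 0.166).

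Terc stood out from both in control, with its highest value at the last time point. It had 66.2 and 97.8 CPM at 3 h and 186 and 165 CPM at 6 h, against 51.4 and 42.2 CPM at 0 h. The 6 h pair lay far above every other library of the experiment. The change was 0.82 ± 0.206 at 3 h (edgeR adjusted p = 0.0127; spike-in scaling 0.29, adjusted p = 0.15; without control 0 h replicate 2, 0.68, adjusted p = 0.0894). Scaled to Rn7sk reads, the 3 h change turned to a fall that passed the test (-0.34 ± 0.140, adjusted p = 0.0397). At 6 h it was 1.91 ± 0.204 (adjusted p = 0.000125), a 3.77-fold change. Spike-in scaling gave a rise of 1.00 ± 0.161 at 6 h (adjusted p = 0.000185), and Terc went from 0.0623 reads per spike-in read (SD 0.00721, n = 2) to 0.124 (SD 0.0117).

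In count terms, 3 of the 3 tested RNAs were called in control at 3 h and 2 of 3 at 6 h, all higher, where 56.5% of all genes were called at 3 h (29.3% higher, 27.1% lower) and 64.8% at 6 h (33.1% higher, 31.7% lower). Under spike-in scaling 1 of 3 was called at each time, Rn7sk at 3 h and Terc at 6 h, both higher, where 7.19% of all genes were called higher and 51.1% lower at 3 h, and 7.33% higher and 63% lower at 6 h. None of the 3 RNAs was called lower in control at either time under either scaling. The 3 h and 6 h comparisons share the 0 h libraries.

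The libraries labelled cKO took another course. Rn7sk had 9487 and 9245 CPM at 3 h and 13889 and 14336 CPM at 6 h, so here the later pair was the higher one, and it was the highest of the experiment. Relative to 0 h the changes were 0.65 ± 0.033 at 3 h and 1.24 ± 0.033 at 6 h (edgeR adjusted p = 4.54e-19 and 3.11e-27). With spike-in scaling they were 2.49 and 0.28, the first in the 2 libraries with the low spike-in share, where the median of all genes also stood at 1.86. The 3 h values on that scale move with the whole library, and the part of the low spike-in share in them was not tested.

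Terc did not follow Rn7sk in cKO. It had 38.7 and 33.1 CPM at 3 h, below both 0 h libraries, and 77.1 and 86.2 CPM at 6 h, above them but below both control libraries at 6 h. The change was -0.43 ± 0.219 at 3 h (edgeR adjusted p = 0.137) and 0.78 ± 0.215 at 6 h (adjusted p = 0.0176). The 6 h call was lost with spike-in scaling (-0.20, adjusted p = 0.325) and without any 1 of 3 of the 4 libraries compared (both 0 h libraries and 6 h replicate 2; 0.68 to 0.84). Rpph1 had 1012 and 934 CPM at 3 h and 833 and 796 CPM at 6 h. These were changes of 0.94 ± 0.279 (adjusted p = 0.0263) and 0.68 ± 0.28 (adjusted p = 0.0768). The call at 3 h ended without cKO 0 h replicate 1 (0.63) or without either 3 h library (0.90 and 1.01), and at 6 h spike-in scaling gave -0.30. Of the 3 RNAs tested, 2 were called at each time, both higher. Of all genes 59.4% were called at 3 h (29.6% higher, 29.8% lower) and 60.9% at 6 h (29.6% higher, 31.3% lower). With spike-in scaling all 3 were called higher at 3 h, as were 83.8% of all genes (2.69% lower), and 1, Rn7sk, at 6 h, against 3.28% of all genes higher and 68.4% lower. Per spike-in read, no fall of these RNAs passed the test over 6 h of the drug in either genotype.

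The difference between genotypes in the change with time was tested directly, as the change in cKO minus that in control. For Rn7sk it was -0.50 ± 0.046 at 3 h (edgeR adjusted p = 2.1e-10) and 0.33 ± 0.046 at 6 h (adjusted p = 1.36e-06): the rise was smaller in cKO at 3 h and larger at 6 h, relative to the typical gene. Spike-in scaling turned the first to 1.86 and kept the second at 0.28 ± 0.051 (adjusted p = 0.000106). For Terc the difference was -1.25 ± 0.300 at 3 h (adjusted p = 0.0291) and -1.14 ± 0.296 at 6 h (adjusted p = 0.0403). With spike-in scaling it was 1.11 at 3 h and -1.19 ± 0.235 at 6 h (adjusted p = 0.00512). Both Terc calls with TMM were close to the threshold: the 6 h call ended without any 1 of the 8 libraries (adjusted p from 0.0695 to 0.13) and the 3 h call without 6 of 8, although the value stayed between -1.501 and -0.94. Rpph1 did not differ past the test (-0.18 ± 0.391 at 3 h, adjusted p = 0.827; 0.29 ± 0.393 at 6 h, adjusted p = 0.686), with ± 2 SE reaching from -0.96 to 1.08 over both. At 3 h 2 of 3 RNAs were called, both lower, against 19.4% of all genes (11% higher, 8.39% lower). At 6 h 1 was called higher and 1 lower, against 19.1% (9.77% higher, 9.35% lower). With spike-in scaling 3 of 3 were called higher at 3 h, as were 89.4% of all genes (0% lower), and the 6 h count was the same, against 7.52% higher and 10.3% lower.

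**Figure D3:**
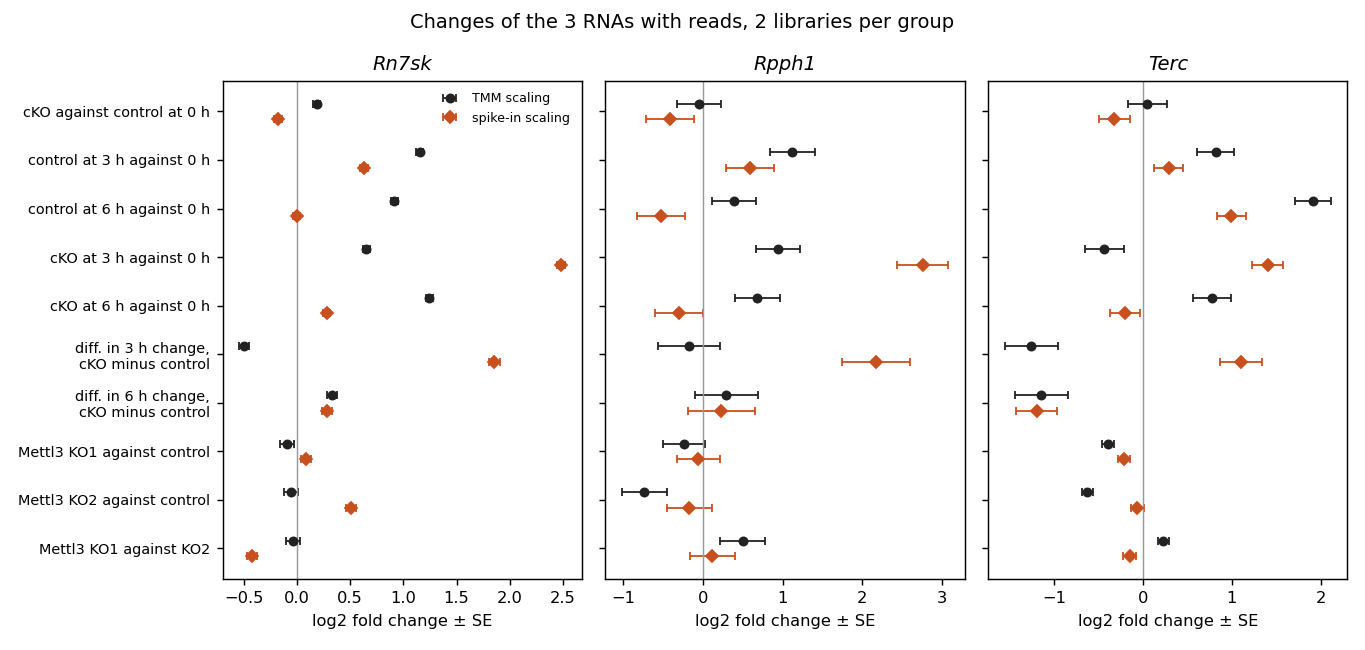
Log2 fold changes of Rn7sk, Rpph1 and Terc (points) with their standard errors (bars) for the 10 comparisons, scaled by TMM (black circles) or by spike-in reads (orange diamonds), with 2 libraries per group. The 2 scalings part most where cKO at 3 h enters (Rn7sk 0.65 against 2.49), and for Terc they lie close at the 6 h difference (-1.14 and -1.19).

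The ratio of 2 RNAs within a library needs no scaling, and in it Terc and Rn7sk parted. In log2 reads of Terc over Rn7sk, untreated control stood at -6.71 and -6.92. With the drug it stood at -7.45 and -6.91 after 3 h, then at -5.75 and -5.88 after 6 h. Untreated cKO stood at -6.95 in both libraries, and its treated libraries at -7.94 and -8.13 after 3 h, then at -7.49 and -7.38 after 6 h. The ratio was thus highest in control at 6 h, and in cKO it was below its 0 h value at both times. Scaled to Rn7sk reads, Terc fell by 0.34 in control at 3 h (adjusted p = 0.0397) and by 1.08 in cKO at 3 h (adjusted p = 8.01e-06). On that scale Terc at 6 h rose by 1.00 ± 0.139 in control (edgeR adjusted p = 7.09e-06) and fell by 0.47 in cKO (adjusted p = 0.00769). The difference was -1.47 ± 0.202 (adjusted p = 4.64e-05) at 6 h and -0.75 ± 0.203 (adjusted p = 0.00739) at 3 h. For Rpph1 over Rn7sk the group means lay between -4.12 and -3.27 in the 6 Ythdc1 groups, and no change of it passed the test in any Ythdc1 comparison (each adjusted p above the threshold).

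**Figure D4:**
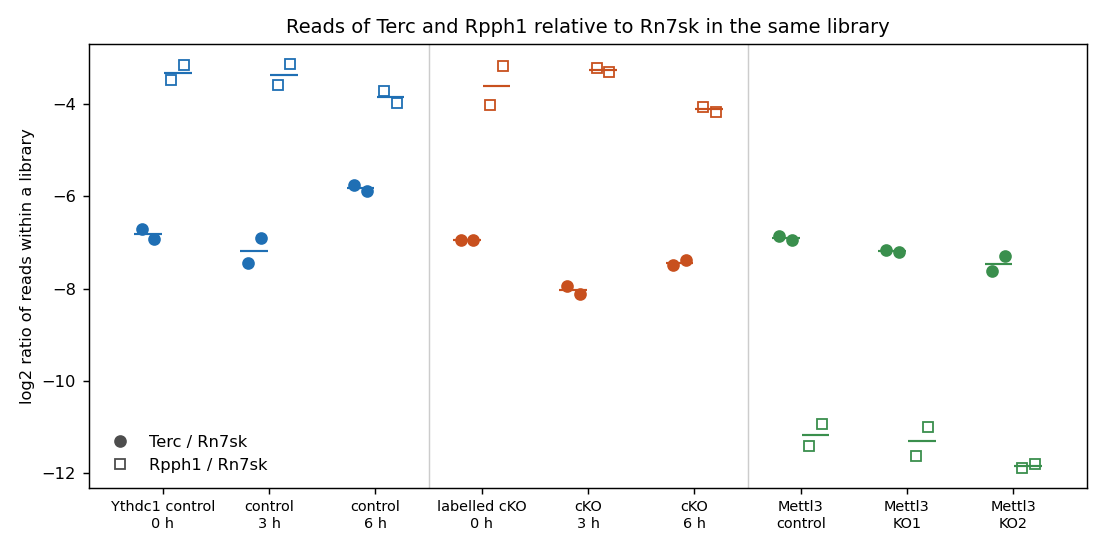
Log2 ratio of Terc reads (filled circles) and Rpph1 reads (open squares) to Rn7sk reads in the same library; lines are the mean of 2 libraries. Terc over Rn7sk was -5.75 and -5.88 in control at 6 h, above all other Ythdc1 libraries, and it was lower in both Mettl3 knockout lines than in their control.

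Ordered by TMM-scaled level within the Ythdc1 experiment, Rn7sk ran from control at 0 h (5242 CPM, SD 167) through cKO at 0 h (5962, SD 312), cKO at 3 h (9366, SD 172), control at 6 h (9861, SD 204) and control at 3 h (11661, SD 108) to cKO at 6 h (14113, SD 316), with n = 2 each. No neighbours in that order overlapped. Terc ran from cKO at 3 h (35.9 CPM, SD 3.99) through control at 0 h (46.8, SD 6.47), cKO at 0 h (48.2, SD 2.53), cKO at 6 h (81.6, SD 6.46) and control at 3 h (82.0, SD 22.4) to control at 6 h (175.5, SD 14.7). The untreated pair of groups overlapped, as did cKO at 6 h with control at 3 h. Rpph1 ran from cKO at 0 h (507 CPM, SD 180) through control at 0 h (527, SD 69.0), control at 6 h (691, SD 102.5), cKO at 6 h (814, SD 25.8) and cKO at 3 h (973, SD 54.8) to control at 3 h (1146, SD 267). Among neighbours in that order, the 0 h groups overlapped and so did the 3 h groups.

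In the Mettl3 lines, which share 1 control, Terc was lower than in that control. The control had 58.5 and 53.7 CPM, KO1 43.2 and 42.4 CPM, and KO2 34.5 and 38.4 CPM, so that no library of 1 group reached another group. The change was -0.39 ± 0.065 in KO1 (edgeR adjusted p = 3.55e-07) and -0.62 ± 0.066 in KO2 (adjusted p = 3.06e-13), folds of 1.31 and 1.54. With spike-in scaling it was -0.21 ± 0.068 in KO1 (adjusted p = 0.00797) and -0.06 ± 0.070 in KO2, no longer past the test (adjusted p = 0.469). Scaled to Rn7sk reads both lines were lower, by -0.29 ± 0.101 (adjusted p = 0.0131) and -0.56 ± 0.103 (adjusted p = 4.26e-07). In log2 reads over Rn7sk the values were -6.86 and -6.94 for the control, -7.16 and -7.22 for KO1, and -7.62 and -7.30 for KO2.

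The lines also differed from each other in Terc. KO1 was above KO2 by 0.23 ± 0.067 (edgeR adjusted p = 0.0026), 1.18-fold, while spike-in scaling gave -0.15 (adjusted p = 0.0685). Without KO2 replicate 1 the difference was 0.16 (adjusted p = 0.127). Feeder markers, whose part in these values was not tested, summed to 225 to 242.5 reads per 1000000 gene reads in the control, 221.5 to 227 in KO1 and 598 to 603 in KO2, with all 10 detected. Other marker lists moved with the lines too, and their part was not tested either. Summed mitochondrial mRNAs were at 5638 and 6555 reads per 1000000 gene reads in the control, at 10203 and 10385 in KO1 (8 of 12 tested called higher, 0 lower) and at 12174 and 12246 in KO2 (12 of 12 higher). Of the 10 stem cell markers 9 were higher and 0 lower in KO1, and 1 was higher and 7 lower in KO2 (8 higher and 2 lower with spike-in scaling). Their sums were 3461 and 3511 in the control, 4666 and 4673 in KO1, and 3077 and 3106 in KO2.

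With all libraries and TMM, Rn7sk did not pass the test in either line. Its level was 6790 and 6596 CPM in the control, 6194 and 6305 CPM in KO1, and 6798 and 6065 CPM in KO2. Both KO1 libraries were under both controls, and KO2 spanned them. The change was -0.10 ± 0.065 in KO1 (edgeR adjusted p = 0.321; ± 2 SE from -0.23 to 0.03) and -0.06 ± 0.065 in KO2 (adjusted p = 0.541; ± 2 SE from -0.19 to 0.07). With spike-in scaling it was 0.08 in KO1 (adjusted p = 0.172) and 0.50 ± 0.046 in KO2 (adjusted p = 2.29e-06), where the median of all genes was 0.53. Leaving out a KO1 library brought the KO1 value past the test, at -0.09 without replicate 1 (adjusted p = 0.033) and -0.10 without replicate 2 (adjusted p = 0.0088), as did fitting with no filter on low counts (-0.07, adjusted p = 0.026). Without KO2 replicate 1 the KO2 value was -0.14 (adjusted p = 1.27e-05), and without replicate 2 it was 0.03 (adjusted p = 0.464). Between the lines the value was -0.04 ± 0.065 (adjusted p = 0.676), and without KO2 replicate 2 it was -0.12 (adjusted p = 0.000286).

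Rpph1 had few reads in the Mettl3 experiment, with 52 and 79 reads in control, 60 and 71 in KO1, and 44 and 38 in KO2. It fell by 0.74 ± 0.282 in KO2 (edgeR adjusted p = 0.023), with both libraries under both controls, and was at -0.24 ± 0.265 in KO1 (adjusted p = 0.483). The KO2 call ended with spike-in scaling (-0.18, adjusted p = 0.604), with DESeq2 (-0.72, adjusted p = 0.174) and without control replicate 2 (-0.50) or either KO2 library (-0.78 and -0.69). Ccnb1ip1, which shares most of the Rpph1 exon, fell by 1.29 ± 0.303 in KO2 (adjusted p = 0.000204), from 67 and 61 reads to 26 and 29. With spike-in scaling its KO2 value was -0.73 (edgeR adjusted p = 0.0318). In the Ythdc1 libraries Ccnb1ip1 fell by 1.08 in control at 6 h (adjusted p = 0.0112), where Rpph1 was at 0.39. It rose by 1.00 in cKO at 3 h (adjusted p = 0.0115), where Rpph1 was at 0.94. What part the shared bases have in these values was not tested. In KO1 1 of the 3 RNAs tested was called, as lower, against 46.1% of 21802 genes (23.9% higher, 22.2% lower). In KO2 2 were called lower, against 50.8% (24.4% higher, 26.4% lower). Between the lines 1 was called, higher in KO1, against 46.1% (24.5% higher, 21.6% lower). With spike-in scaling the counts were 1 lower in KO1 (34.8% of all genes higher, 13.7% lower), 1 higher in KO2 (Rn7sk; 56.7% higher, 6.69% lower) and 1 lower in KO1 against KO2 (Rn7sk; 7.63% higher, 48.1% lower).

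Rpph1 also differed between the experiments. In reads per 1000000 gene reads, with no further normalization, the Ythdc1 control at 0 h had 550 and the Mettl3 control 3.00, a ratio of 183.5. Over 12717 genes the median ratio was 0.989, and Rpph1 ranked at 14 from the highest. Rn7sk had a ratio of 0.80 and Terc of 0.85. The Y RNA gene Rny1, another short polymerase III product, had a ratio of 362 and was picked after its value was seen. Genes of other kinds stood above it, the protein-coding Med10 (1818) and Hist2h3b (473.9) and the pseudogene Gm28437 (469.5). The others above it were the small nuclear RNA genes Gm24046 (1108) and Gm23143 (455.9). The experiments differ in all that their labels do not give, and no test was made between them.

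Genes of the partner proteins were described from 6 lists, as counts called of those tested, to be read against the shares of all genes called in the same comparison. In cKO at 0 h 13.5% of all genes were higher and 15.8% lower. These shares were 33.1% and 31.7% in control at 6 h, and in cKO at 6 h 29.6% and 31.3%. In KO1 they were 23.9% and 22.2%, and in KO2 24.4% and 26.4%. Spike-in scaling shifts all genes of a library alike, and with it 42.3% of genes were lower in cKO at 0 h, 63% in control and 68.4% in cKO at 6 h, while 34.8% were higher in KO1 and 56.7% in KO2. The list counts are therefore given with both scalings.

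For the 7SK particle and P-TEFb (7 genes), 3 of 7 were higher and 0 lower in cKO at 0 h: Ccnt1 (cyclin T1; 0.40 ± 0.067, edgeR adjusted p = 9.35e-06), Hexim1 (P-TEFb inhibitor; 0.34 ± 0.084) and Ccnt2 (0.21 ± 0.062). The list median was -0.08 against 0.01 for all genes, and with spike-in scaling 0 were higher and 3 lower. In control at 6 h, with TMM, 5 of 7 fell and 0 rose (median -0.53, all genes 0.03), while Rn7sk rose on that scale. With spike-in scaling 7 of 7 fell, and Rn7sk was at its 0 h level (-0.0049, adjusted p = 0.912). Among the genes that fell with TMM were Ccnt1 (-1.44 ± 0.071), Ccnt2 (-1.27 ± 0.064) and Mepce, the 7SK capping enzyme (-1.80 ± 0.176). In cKO at 6 h 4 fell and 1 rose (median -0.35, all genes 0.01; with spike-in scaling 7 fell and 0 rose). The change in Mepce over 6 h differed between genotypes by 1.497 ± 0.240 (edgeR adjusted p = 1.35e-05). It was 1 of 3 such calls, all higher, against 9.77% of all genes higher and 9.35% lower. With spike-in scaling 2 were called higher, against 7.52% of all genes higher and 10.3% lower. At 3 h the list had 5 lower and 0 higher in control (spike-in scaling 7 lower), where 27.1% of all genes were lower. In cKO at 3 h it had 6 lower and 1 higher with TMM, where 29.8% of all genes were lower and 29.6% higher. This turned to 0 lower and 6 higher with spike-in scaling (median 0.95, all genes 1.86), where 83.8% of all genes were higher. In the Mettl3 lines Hexim1 fell by 0.38 ± 0.058 in KO1 and by 1.17 ± 0.062 in KO2 (adjusted p = 6.13e-08 and 1.49e-28; with spike-in scaling -0.19 and -0.61). The list had 3 lower and 1 higher in KO1 and 4 lower and 1 higher in KO2. With spike-in scaling the balance turned, to 1 lower and 2 higher in KO1 and 1 lower and 4 higher in KO2.

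The proteins of RNase MRP and RNase P (11 genes, most of them found in both) had 0 higher and 3 lower in cKO at 0 h (median -0.23, all genes 0.01): Rpp25 (-0.57 ± 0.101), Rpp21 (-0.82 ± 0.189) and Pop4 (-0.33 ± 0.106). With spike-in scaling 9 were lower. In control at 6 h 3 rose and 6 fell (median -0.64; spike-in scaling 0 and 9), with Rpp38 at -2.78 ± 0.365 and Rpp25l at -1.58 ± 0.231. In cKO at 6 h 4 rose and 4 fell (median -0.10; spike-in scaling 0 and 10). The differences at 6 h were called for Pop4 (0.68 ± 0.148), Rpp14 (0.84 ± 0.205) and Rpp40 (0.58 ± 0.195), all higher, against 9.77% of all genes. The median difference was 0.46 against -0.03 for all genes, and with spike-in scaling 2 were called, both higher. In KO1 6 were higher and 0 lower (median 0.23; spike-in scaling 8 and 0), among them Pop4 (0.61 ± 0.073) and Rpp40 (0.71 ± 0.114). In KO2 4 were higher and 3 lower (median 0.12), and with spike-in scaling 8 and 0.

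For telomerase and the H/ACA particle (9 genes), cKO at 0 h had 0 higher and 2 lower (spike-in scaling 0 and 7), Nhp2 (-0.55 ± 0.057) and Dkc1, the gene of dyskerin (-0.23 ± 0.060). In control at 6 h, where Terc was at its highest, 5 rose and 1 fell (median 0.28, all genes 0.03; with spike-in scaling 2 rose and 7 fell). Nhp2 rose by 1.25 ± 0.056, Tep1, a telomerase-associated protein gene, by 1.17 ± 0.088 and Nop10 by 0.47 ± 0.075. In cKO at 6 h 4 rose and 0 fell (median 0.23), Nop10 by 1.35 ± 0.075, and with spike-in scaling 1 rose and 7 fell (median -0.74). In the difference between genotypes at 6 h, 2 of the 9 genes were called higher and 2 lower (median -0.17), against 9.77% and 9.35% of all genes. With spike-in scaling 2 were higher and 3 lower, against 7.52% and 10.3%. Tert, the catalytic subunit, differed by -0.73 ± 0.150 (edgeR adjusted p = 0.000412, with spike-in scaling -0.78). Tep1 differed by -0.67 ± 0.127 (adjusted p = 0.000153), and both went in the direction of Terc. Nop10, 1 of the 2 called higher, differed by 0.88 ± 0.106. In the Mettl3 lines, with Terc lower, Nhp2 was higher in KO1 (0.82 ± 0.043) and KO2 (0.71 ± 0.044), as was Nop10 (1.02 ± 0.068 and 0.78 ± 0.070). The list had 4 higher and 2 lower in KO1 (spike-in scaling 6 and 0), and 3 higher and 5 lower in KO2, where spike-in scaling gave 7 higher and 0 lower.

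RNA polymerase III with its factors (32 genes) had 5 higher and 6 lower in cKO at 0 h, a share near that of all genes, and with spike-in scaling 1 higher and 22 lower. Snapc3, a subunit of the complex that starts 7SK-type genes, led them (1.10 ± 0.075, edgeR adjusted p = 2.6e-14). In control at 6 h 7 rose and 20 fell (median -0.45; spike-in scaling 1 and 29), and in cKO 8 rose and 18 fell (median -0.35; spike-in scaling 0 and 29). Snapc3 was at -2.28 ± 0.091 in control and -2.33 ± 0.083 in cKO. In KO1 16 were higher and 5 lower (median 0.15; spike-in scaling 23 and 1). In KO2 12 were higher and 10 lower (median -0.05), which became 27 and 2 with spike-in scaling. Pou2f1, the gene of OCT1, an activator of 7SK-type promoters, was higher in both (0.81 ± 0.040 and 0.89 ± 0.040).

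Factors that trim or tail the 3′ ends of such RNAs (10 genes) had 0 higher and 3 lower in cKO at 0 h (spike-in scaling 0 and 10). At 6 h in control 3 rose and 6 fell (spike-in scaling 0 and 9), with the deadenylase gene Toe1 at -1.70 ± 0.109. In cKO at 6 h 3 rose and 5 fell (spike-in scaling 0 and 9; Toe1 -1.18 ± 0.111), and the difference for Toe1 was 0.52 ± 0.157 (edgeR adjusted p = 0.0158). In KO1 5 were higher and 3 lower (spike-in scaling 7 and 1). In KO2 0 were higher and 7 lower (median -0.17), and with spike-in scaling 8 higher and 0 lower.

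Of 15 other structural RNAs 10 were tested in the Ythdc1 libraries and 9 in the Mettl3 libraries. None was called with TMM in cKO at 0 h (spike-in scaling 0 higher and 2 lower). Nor was any in control at 3 h (spike-in scaling 0 and 0), where 56.5% of all genes were called with TMM. In control at 6 h 4 rose and 0 fell (median 0.73, all genes 0.03), including the RNase P RNA-like gene Rprl3 (1.74 ± 0.407, edgeR adjusted p = 0.000304), and with spike-in scaling 0 were called. In cKO at 6 h 1 rose and 1 fell (spike-in scaling 0 and 1). Rprl3 fell there (-1.82 ± 0.560), after a rise in cKO at 3 h (1.16 ± 0.373, edgeR adjusted p = 0.0074). Its 6 h change differed from that of control by -3.56 ± 0.691 (adjusted p = 0.000207). In KO1 1 of 9 was called, Bc1, as higher (0.85 ± 0.202, adjusted p = 0.0177; spike-in scaling 2 higher). In KO2 3 were higher and 3 lower, against 50.8% of all genes called, and with spike-in scaling 4 higher and 1 lower. Rprl3 was higher there (1.005 ± 0.285). Rn7s2, the signal recognition particle RNA gene, was lower (-1.12 ± 0.312, adjusted p = 0.00165), as was the Y RNA gene Rny3 (-1.80 ± 0.530, adjusted p = 0.00302). The Rn7s2 call ended with spike-in scaling (-0.56, adjusted p = 0.109), and its reads are uncertain because Rn7s1 is a near copy. Between the lines 3 were higher and 1 lower in KO1, against 24.5% and 21.6% of all genes. With spike-in scaling 2 were higher and 2 lower, against 7.63% and 48.1%.

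Among the nearest genes, the pseudogene Gm21960, 1075 bases from Terc, did not move with it: at 6 h it fell by 0.66 ± 0.216 in control (edgeR adjusted p = 0.0079), with spike-in scaling by 1.58. Parp2, which starts 73 bases from Rpph1 on the other strand, fell by 0.34 ± 0.094 in control at 3 h. The lincRNA gene C920006O11Rik, 280 bases from Rn7sk, had 5 to 70 reads per library and no call in the Ythdc1 or Mettl3 comparisons with TMM.

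The genes most like each RNA in level over the 12 Ythdc1 libraries, among 11392 genes, were given by Pearson's r of log2 CPM, as a description in which libraries share groups and depth. For Rn7sk they were Ndufa1 (0.975), Npc1 (0.970) and Rps25 (0.968). For Terc they were Esyt1 (0.976), Tonsl (0.970) and Myo10 (0.967), and for Rpph1 Plrg1 (0.911), Emd (0.896) and Mrpl22 (0.896). Between the RNAs themselves r was 0.713 for Rn7sk with Rpph1, 0.481 for Rn7sk with Terc and 0.129 for Rpph1 with Terc.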

How the data were processed

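Raw read counts per gene, deposited by the authors for each library and in a table of all libraries with 0 differing cells, were used as they stand. Per the submitters' processing notes, the tools were CASAVA, Trimmomatic (0.38), HISAT2 (2.1.0) and HTSeq, and mm10 the genome. Their options, strand setting, overlap mode and gene models were not given in the sources used here. Per the labels' protocols, spike-in RNA was added before removal of ribosomal RNA with RiboMinus and stranded libraries were made with the SMARTer total RNA kit v2. Reads placed at several sites were not given to genes, so reads that an RNA shares with near copies in the genome are missing from its count. How many were lost in this way was not tested. Symbols, exons and sequences came from GENCODE M21, in which 54409 of 54446 gene identifiers were found without version and 53229 with it.

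The 12 Ythdc1 and 6 Mettl3 libraries were fitted separately with edgeR 4.0.16 in R 4.3.3 (1 coefficient per group, TMM, default filter with a minimum count of 10, robust quasi-likelihood F test). Benjamini-Hochberg adjustment covered every gene tested, with calls below 0.05; SE is the log2 fold change divided by the root of F. Differences between genotypes in the change with time are interaction terms. The fit was tested on simulated counts. Alternatives were spike-in scaling, scaling to Rn7sk reads, DESeq2 1.42.0 (size factors, and its Wald test), other filters, a replicate block, all libraries in 1 fit, and each library left out. Leaving out both cKO 3 h libraries was chosen after seeing the data. The rule for the members uses no measured value, but the members and gene lists were chosen with earlier results of these data known. Named partner genes are up to 3 called members per list and comparison by p, with a selection printed; named neighbours lie within 2000 bases; likeness needed a mean count of 50 or more and used a prior count of 2. Floors cover counting error only, since reads had no molecular identifiers.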

Additional observations from a re-analysis of the deposited data

Results flagged for a closer look

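Where the change with actinomycin D differed between the Ythdc1 genotypes by a test of the difference itself, the value was flagged. Rn7sk had a difference (cKO minus control) of -0.50 at 3 h and 0.33 at 6 h, log2 and relative to the typical gene. Terc had -1.25 at 3 h and -1.14 at 6 h. The 3 h values of both turned positive with spike-in scaling, and the 6 h values did not turn.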

How the results depend on the processing

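Of the 30 values (3 RNAs in 10 comparisons), 5 kept their direction and their side of the threshold under every alternative run, and 9 under every one but spike-in scaling. Scaling to spike-in reads moved most of the others. For Rn7sk it gave -0.18 for cKO against control at 0 h, -0.0049 for control at 6 h, 1.86 for the difference at 3 h, 0.0834 for KO1, 0.50 for KO2 and -0.42 for KO1 against KO2. For Rpph1 it gave 0.59 and -0.53 for control at 3 and 6 h, -0.30 for cKO at 6 h, 2.17 for the difference at 3 h and -0.18 for KO2. For Terc it gave -0.32 at 0 h, 0.29 for control at 3 h, 1.40 and -0.20 for cKO at 3 and 6 h, 1.11 for the difference at 3 h, -0.0593 for KO2 and -0.15 for KO1 against KO2. By construction this scaling moves every gene of a library alike; what set the spike-in shares was not tested. Scaling to Rn7sk reads gave, for Rpph1, -0.0381 and -0.53 for control at 3 and 6 h, 0.27 and -0.58 for cKO at 3 and 6 h, and 0.31 and -0.0487 for the differences at 3 and 6 h; for Terc it gave -0.14 at 0 h, -0.34 for control at 3 h, and -1.08 and -0.47 for cKO at 3 and 6 h. With no filter, Rn7sk passed in KO1 (-0.0683). With the DESeq2 Wald test Rpph1 passed in cKO at 6 h (0.66) and not in KO2 (-0.72). In 1 fit of all 18 libraries, Rpph1 passed in cKO at 6 h (0.74) and not in KO2 (-0.73). Terc did not pass there in KO1 (-0.37) or between the lines (0.24). That fit shares 1 spread between the experiments, and the part of this was not tested. Nor was the cause of the other changes.

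Replicate numbers are shared by name between groups. Their deviations correlated at 0.00115 to 0.0426 between the Ythdc1 groups and -0.0337 to -0.00503 between the Mettl3 groups, so the numbers were not taken as pairs. With the replicate block the Terc differences were -1.25 at 3 h (edgeR adjusted p = 0.0583) and -1.14 at 6 h (adjusted p = 0.0737), Rn7sk passed in KO1 (-0.10, adjusted p = 0.046), and 27 of 30 values kept their call.

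With each library left out in turn, where the lone library of a group is assumed to vary like the other groups, Rn7sk ranged from -0.11 to -0.0719 in KO1, from -0.14 to 0.0291 in KO2 and from -0.12 to 0.051 between the lines. Rpph1 ranged from -0.48 to 0.27 at 0 h, from 0.86 to 1.34 for control at 3 h, from 0.63 to 1.36 and from 0.36 to 1.09 for cKO at 3 and 6 h, from -0.50 to 0.24 and from -0.0286 to 0.71 for the differences at 3 and 6 h, from -0.58 to 0.0697 in KO1, from -0.94 to -0.50 in KO2 and from 0.16 to 0.81 between the lines. Terc ranged from -0.10 to 0.18 at 0 h, from 0.51 to 1.08 for control at 3 h, from 0.68 to 0.85 for cKO at 6 h, from -1.50 to -0.94 and from -1.27 to -0.99 for the differences at 3 and 6 h, and from 0.16 to 0.31 between the lines. Counts of called list members moved by more than 1.5 times in 31 of 60 cases with spike-in scaling and in 76 of 684 with the other alternatives. Rpph1 in the Mettl3 libraries rests on 38 to 79 reads per library, and Terc on 378 to 1835 in the Ythdc1 libraries, which limits how small a change can be seen.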
